A study of Mus musculus with 4 samples.

Results

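The genes described here are 33 genes of sterol and fatty acid synthesis and of its control by the SREBP transcription factors, out of 54842 genes in the deposited count table. They were listed by gene symbol under a rule that holds no measured value, and all 33 were found and passed the filter on low counts. They comprised 18 enzymes of the sterol branch, 9 enzymes of the fatty acid branch, 5 regulators (Srebf1, Srebf2, Scap, Insig1 and Insig2) and Stard4, a carrier of sterols between membranes. The sterol branch was divided into the 7 enzymes of the mevalonate arm, from acetoacetyl-CoA to farnesyl diphosphate, and the 11 enzymes that follow from squalene to cholesterol.

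Ribosomal RNA-depleted total RNA was sequenced from untreated mouse embryonic fibroblasts (MEF cells), with 2 libraries of wt MEF cells (labelled wild-type) and 2 of Top2β-null MEF cells, which lack the DNA topoisomerase Top2β. The study used them to ask whether the absence of Top2β alters transcription of satellite repeats, and the same counts cover all genes. By the labels of all 4 libraries, both lines grew in high glucose DMEM with 10% fetal bovine serum, and serum supplies cholesterol and fatty acids. The Top2β-null MEF cells were derived from null mice and were a gift from other laboratories. The paper does not say whether the wt MEF cells sequenced beside them share that source, so that origin of the line and genotype cannot be told apart. No label says whether the 2 libraries of a line came from separate cultures, and p-values then measure the spread between these libraries, which may be technical.

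Cells make cholesterol from acetyl-CoA through mevalonate and squalene, and they make fatty acids from the same acetyl-CoA through malonyl-CoA. SREBP-2, encoded by Srebf2, is best known for driving the sterol genes, and SREBP-1, encoded by Srebf1, for driving the fatty acid genes. Both are made as membrane proteins of the endoplasmic reticulum, where Insig proteins hold them back together with Scap when sterols are plentiful. When sterols fall, Scap escorts them to the Golgi, proteases release the part that enters the nucleus, and it binds sterol regulatory elements in promoters, usually beside NF-Y and Sp1 sites.

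Promoter sequences from RefSeq (GRCm38.p6, from 250 bases before to 50 bases after a gene's start) were matched by symbol for 26 of the 33 genes. The genes named only are Fdft1, Sqle, Fdps, Scd1, Scd2, Fads1 and Stard4. Both strands were searched for a sterol regulatory element (TCACNCCAC or its reverse complement GTGGNGTGA), the NF-Y box (CCAAT or ATTGG), the GC box bound by Sp1 (GGGCGG or CCGCCC) and the E-box (CACGTG). Matches to CCAAT and ATTGG can overlap each other as CCAATTGG.

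Some genes had several promoter entries, and a gene was counted if any of them held the motif. An NF-Y box was found in 21 of the 26 genes, against 41.1% of 27025 genes with a promoter entry. It occurred in 14 of 15 sterol genes, in 3 of 6 fatty acid genes and in 4 of 5 regulators. A GC box was found in 22 of 26 (14 of 15, 3 of 6 and 5 of 5), against 38.2% of all genes. The E-box was found in 5 of 26, against 8.09% of all genes, and the stringent sterol element in 1 of 26, Hmgcs1, against 1.44%. A match describes letters in this window, and binding was not measured.

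The 250 bases before the RefSeq start are shown for 2 genes of the mevalonate arm that were higher in Top2β-null MEF cells (Hmgcs1 and Mvd), for a sterol gene that was lower (Ebp) and for a fatty acid gene that was higher (Fasn). They lie at chr13:119690101-119690350 on the forward strand for Hmgcs1, chr8:122443423-122443672 on the reverse strand for Mvd, chrX:8193513-8193762 on the reverse strand for Ebp and chr11:120824548-120824797 on the reverse strand for Fasn. Each is written 5′ to 3′ on the strand of the gene, and capitals mark matches to the NF-Y box and, in Hmgcs1, the sterol element.
Hmgcs1: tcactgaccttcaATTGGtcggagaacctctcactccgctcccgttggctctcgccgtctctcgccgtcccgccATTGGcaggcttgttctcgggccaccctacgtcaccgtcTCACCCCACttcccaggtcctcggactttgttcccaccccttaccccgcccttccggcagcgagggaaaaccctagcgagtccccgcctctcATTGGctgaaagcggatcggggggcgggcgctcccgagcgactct
Mvd: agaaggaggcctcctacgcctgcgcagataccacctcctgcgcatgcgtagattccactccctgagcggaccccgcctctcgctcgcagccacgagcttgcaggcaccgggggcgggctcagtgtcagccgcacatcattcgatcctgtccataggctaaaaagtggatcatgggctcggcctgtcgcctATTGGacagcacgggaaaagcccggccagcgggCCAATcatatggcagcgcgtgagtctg
Ebp: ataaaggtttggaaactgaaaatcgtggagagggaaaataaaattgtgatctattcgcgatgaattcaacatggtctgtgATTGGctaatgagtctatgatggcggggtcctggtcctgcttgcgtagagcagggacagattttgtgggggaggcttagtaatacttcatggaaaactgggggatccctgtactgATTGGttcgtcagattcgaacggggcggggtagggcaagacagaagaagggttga
Fasn: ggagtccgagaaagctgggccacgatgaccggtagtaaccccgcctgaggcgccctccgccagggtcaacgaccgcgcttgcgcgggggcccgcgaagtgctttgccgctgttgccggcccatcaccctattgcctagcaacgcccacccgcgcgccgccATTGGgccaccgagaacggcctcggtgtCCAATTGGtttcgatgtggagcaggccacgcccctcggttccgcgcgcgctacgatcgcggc

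In Hmgcs1 the sterol element begins 137 bases before the start and lies between NF-Y boxes that begin 176 and 45 bases before it, with a further box at 237. Mvd has NF-Y boxes at 60 and 27 bases before the start, and Ebp at 170 and 55. Fasn has them at 90, 62 and 59, of which the last pair overlap as the palindrome CCAATTGG. The NF-Y box was present in Hmgcs1, Mvd and Fasn, whose RNA was higher, and in Ebp, whose RNA was lower, as described next. As 21 of the 26 genes with a promoter entry held this box, its presence in these examples was likely whatever their direction. Whether the box bears on the direction was not tested.

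Counts were scaled to a common library size (normalized counts), and Top2β-null was compared with wt MEF cells with the quasi-likelihood test of edgeR, and p-values were adjusted by Benjamini-Hochberg over all 26566 genes and repeat families tested. All log2 fold changes, standard errors (SE) and adjusted p in this report come from that fit, with 2 libraries a group. Library totals ranged from 133116830 to 149647278 counts. Top2b itself had 18259 and 18465 normalized counts in wt and 3879 and 3789 in Top2β-null MEF cells (20.9% of wt), in the direction of the labels. Of 10 fibroblast markers, 9 were tested, 4 were higher and 4 lower. Their sum fell from 1300520 and 1325158 to 885712 and 890677 normalized counts. The 4 higher were Dcn, Thy1, Pdgfrb and Pdgfra, with log2 fold changes of 4.99, 2.07, 1.88 and 1.16. The 4 lower were Col1a1, Col3a1, Vim and Fn1, with -1.38, -1.01, -0.84 and -0.36. Of 10 adipocyte markers, 6 were tested, 3 were higher and 3 lower, and they summed to 2339 and 2418 in wt and to 1738 and 1643 in Top2β-null MEF cells. Among them Adipoq reached at most 2.97, Plin1 7.25 and Cidec 4.95 normalized counts, and Lep was at 0. Plin4, which made up most of the sum in wt, had 1972 and 2045 in wt and 564 and 532 in Top2β-null MEF cells, while Fabp4 had 8.07 and 1.93 against 572 and 534 and Cebpa 268 and 260 against 517 and 509. Of 8 leukocyte markers, 3 were tested, 2 were higher and 1 lower. Tyrobp and Adgre1 were at 0, and the list summed to 2405 and 2475 in wt and to 1308 and 1305 in Top2β-null MEF cells. Cd68, the lower one, had 1641 and 1688 in wt and 302 and 289 in Top2β-null MEF cells. Csf1r had 740 and 767 against 962 and 978, and Itgam 1.01 and 0.966 against 28 and 28.7. The 6 epithelial markers summed to 249 and 260 in wt and to 55.9 and 85.2 in Top2β-null MEF cells. The part of these marker shifts in the lipid synthesis values was not tested. In RNA from whole cultures, more cells of a kind and more RNA per cell cannot be told apart.

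Most lipid synthesis genes were higher in Top2β-null MEF cells. By adjusted p, 24 of the 33 rose and 6 fell, whereas 32.5% of all features tested rose and 32.5% fell. Among the 11758 features at or above the mean count of the least abundant member, Acss2, 38.1% rose and 42.7% fell. The median log2 fold change was 0.40 over the 33 genes, 0.0027 over all features and -0.013 over features of at least that abundance. The changes were moderate in size. By the cut-offs of the study (adjusted p below 0.05, absolute log2 fold change above 1 and mean normalized count above 100), 2 genes were called higher, Idi1 and Fads1, and 1 lower, Acss2, against 5.27% of all features called higher and 4.97% called lower. Among features of at least the abundance of Acss2, 5.44% were called higher and 6.02% lower. The genes nearest this cut-off were Acss2, just inside with a log2 fold change of -1.04, and Hmgcs1, just outside with 0.93.

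The 2 libraries of a line lay close together for these genes. Over the 33 genes and both lines, the absolute log2 ratio between the 2 libraries had a median of 0.0268 and reached 0.104 for Insig2 in wt MEF cells. The groups did not overlap for 32 genes, Insig2 being the exception. Both Top2β-null libraries lay above both wt libraries for 25 genes and below for 7, including Srebf1 and Dhcr7, which did not pass the test. The share of all features without overlap was not counted, so this cannot be read as a trait of these genes. Of 48 other pathway genes tested, described below, both Top2β-null libraries lay above for 29 and below for 18.

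**Figure D1:**
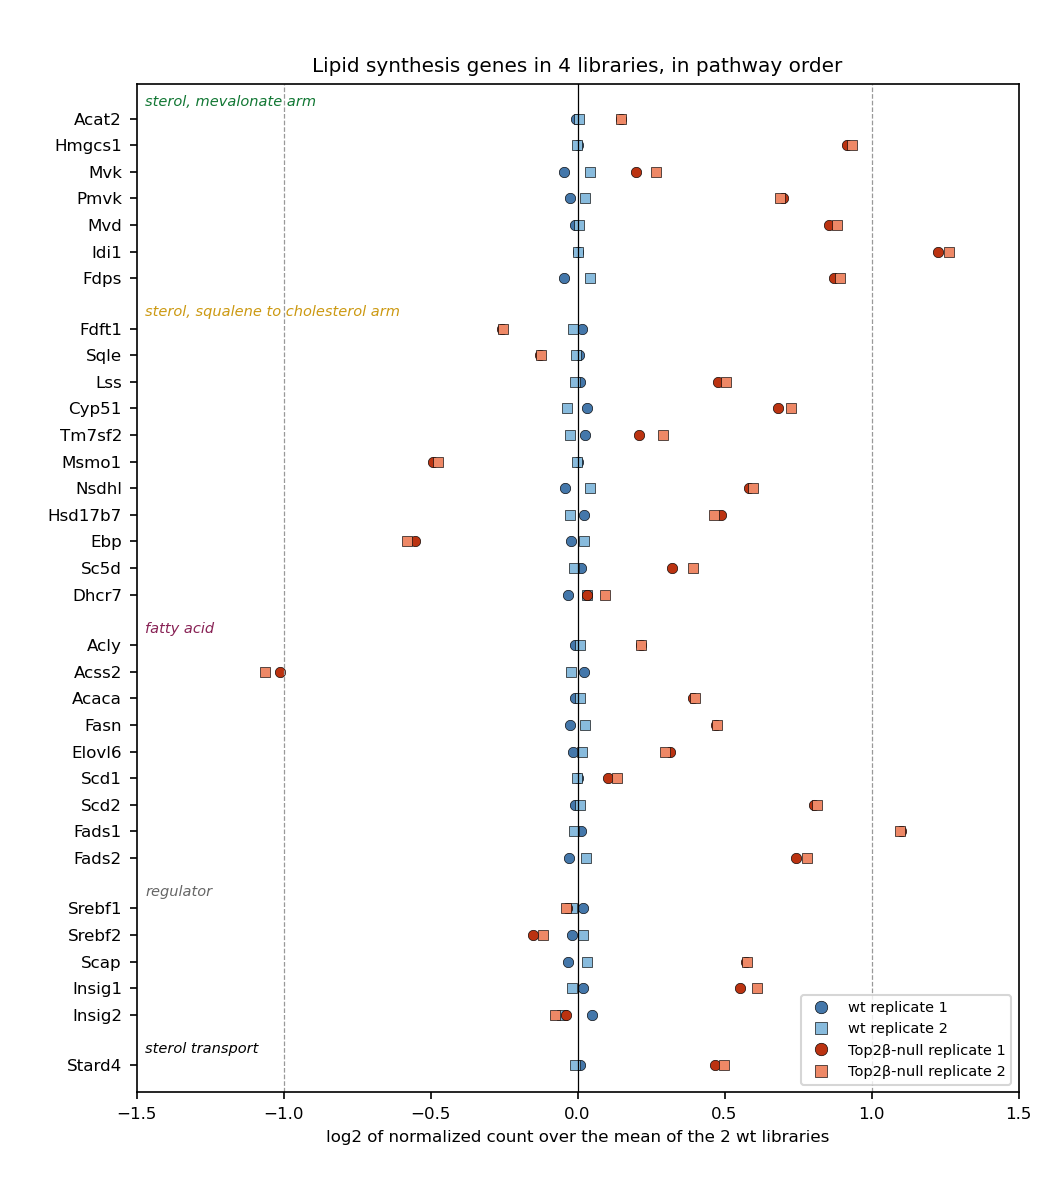
Each row is a gene in pathway order, and each point is a library, placed by the log2 of its normalized count over the mean of the 2 wt libraries (circles are replicate 1, squares replicate 2, blue wt, red Top2β-null, dashed lines a log2 ratio of 1 either way). The Top2β-null points lie right of the wt points in all 7 genes of the mevalonate arm, on both sides in the squalene to cholesterol arm, and farthest left for Acss2.

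The mevalonate arm moved in a single direction. All 7 of its genes were higher in Top2β-null MEF cells, with log2 fold changes from 0.15 to 1.25 and a median of 0.87, where 38.1% of features of at least the abundance of Acss2 rose. The cut-offs of the study were passed by 1 of them, Idi1, against 5.44% of those features. Their summed normalized counts were 34759 and 35225 in wt and 59250 and 60188 in Top2β-null MEF cells, which is 171% of wt.

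Idi1 encodes isopentenyl diphosphate isomerase, which interconverts the building blocks of all isoprenoids, and lies on chr13:8885501-8892451 on the forward strand (GRCm38). Idi1 had 5541 normalized counts in each wt library and 12970 and 13314 in the Top2β-null libraries. This is a 2.37-fold difference (log2 fold change 1.25, SE 0.0264, adjusted p = 6.2e-16), and it was the largest rise among the 33 genes. The Top2β-null libraries lay far above the wt libraries relative to the distance within each pair.

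Hmgcs1, the HMG-CoA synthase that commits acetoacetyl-CoA to the mevalonate route, lies on chr13:119690379-119708260 on the forward strand. The libraries gave 12037 and 12001 normalized counts in wt and 22698 and 22965 in Top2β-null MEF cells (log2 fold change 0.93, SE 0.0244, adjusted p = 9.2e-15). It reached 190% of wt, with no overlap between the lines. Of its exon length, 12.1% lies opposite exons of Gm48342, which had raw counts of 2230 and 2407 in wt and 3932 and 4144 in Top2β-null MEF cells.

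Fdps, which joins the isoprenoid units into farnesyl diphosphate, had 2975 and 3160 normalized counts in wt and 5613 and 5693 in Top2β-null MEF cells (log2 fold change 0.88, SE 0.0355, adjusted p = 2.1e-12). Part of this locus is shared, since 26.7% of the exon length of Fdps is also annotated to Gm43738 on the same strand, with raw counts of 2790 and 3147 in wt and 4855 and 5124 in Top2β-null MEF cells. Reads from the shared bases could have been given to either gene.

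Mvd, the decarboxylase that makes isopentenyl diphosphate, had 1979 and 1998 normalized counts in wt and 3602 and 3666 in Top2β-null MEF cells (log2 fold change 0.87, SE 0.0396, adjusted p = 1.0e-11). Pmvk, the kinase acting just before it, had 990 and 1026 in wt and 1638 and 1626 in Top2β-null MEF cells (log2 fold change 0.70, SE 0.0516, adjusted p = 5.3e-09). Mvd reached 183% and Pmvk 162% of wt, and the lines did not overlap.

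The other kinase and the entry enzyme moved least. Mvk, mevalonate kinase, had 3370 and 3580 normalized counts in wt and 3988 and 4180 in Top2β-null MEF cells, or 118% of wt (adjusted p = 7.6e-05, edgeR). Acat2, the cytosolic thiolase that makes acetoacetyl-CoA, had 7866 and 7918 in wt and 8740 and 8744 in Top2β-null MEF cells, or 111% of wt (adjusted p = 8.1e-05, edgeR). For both genes the Top2β-null libraries were the higher pair, by a margin that exceeded the distance within each pair.

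Of the 11 genes of the squalene to cholesterol arm, 6 rose, 4 fell and 1 did neither, against 38.1% of features of at least the abundance of Acss2 that rose and 42.7% that fell, with log2 fold changes from -0.57 to 0.70 and a median of 0.25. The cut-offs of the study were passed by 0 of them, against 5.44% of those features called higher and 6.02% lower. The sum over the arm was 101063 and 99888 normalized counts in wt and 104758 and 106735 in Top2β-null MEF cells, or 105% of wt, since falls of abundant genes offset rises of others.

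The genes that fell include the entry to the arm. Fdft1, squalene synthase, which draws farnesyl diphosphate into sterols, had 7871 and 7713 normalized counts in wt and 6525 and 6532 in Top2β-null MEF cells (log2 fold change -0.26, SE 0.0265, adjusted p = 3.4e-07). Of its exon length, 18.3% overlaps exons of Ctsb on the opposite strand, whose raw counts were 35614 and 38270 in wt and 21697 and 22964 in Top2β-null MEF cells. The strand setting of the counting is not given in the sources used here, and the part of Ctsb reads in the value of Fdft1 was not tested.

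Sqle, squalene epoxidase, had 20960 and 20821 normalized counts in wt and 19104 and 19187 in Top2β-null MEF cells, or 91.6% of wt (log2 fold change -0.13, SE 0.024, adjusted p = 2.3e-04). This small fall depended on the scaling: with counts scaled to the library total it was -0.056 with an adjusted p of 0.0626 (edgeR).

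Msmo1, the methylsterol monooxygenase that acts in removal of methyl groups from the sterol ring, lies on chr8:64718139-64733792 on the reverse strand. It had 28687 and 28554 normalized counts in wt and 20334 and 20596 in Top2β-null MEF cells (log2 fold change -0.48, SE 0.0244, adjusted p = 3.8e-11), or 71.5% of wt. Ebp, the sterol isomerase that moves a double bond in the ring, lies on chrX:8185329-8193512 on the reverse strand and had 2928 and 3013 in wt and 2025 and 1987 in Top2β-null MEF cells (log2 fold change -0.57, SE 0.0418, adjusted p = 5.0e-09). At 67.5% of wt, Ebp had the largest fall in the sterol branch.

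The genes that rose lie between and beside those that fell. Cyp51, the demethylase acting on lanosterol, had 14798 and 14113 normalized counts in wt and 23165 and 23895 in Top2β-null MEF cells (log2 fold change 0.70, SE 0.0282, adjusted p = 2.0e-12). Lss, lanosterol synthase, which closes the sterol rings, had 7450 and 7347 in wt and 10315 and 10505 in Top2β-null MEF cells, or 141% of wt (adjusted p = 5.9e-11, edgeR). Both lay above every wt library in both Top2β-null libraries.

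Nsdhl and Hsd17b7 act with Msmo1 in removing methyl groups from the ring, and both rose while Msmo1 fell. Nsdhl had 2513 and 2663 normalized counts in wt and 3879 and 3913 in Top2β-null MEF cells, or 151% of wt (adjusted p = 1.7e-09, edgeR). Hsd17b7 had 3182 and 3079 in wt and 4387 and 4321 in Top2β-null MEF cells, or 139% of wt (adjusted p = 5.7e-09, edgeR). The 3 enzymes of this demethylation thus did not move together.

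Sc5d, a sterol desaturase, had 8323 and 8187 normalized counts in wt and 10304 and 10846 in Top2β-null MEF cells, or 128% of wt (adjusted p = 1.4e-08, edgeR). Tm7sf2, a sterol reductase, had 1847 and 1784 in wt and 2099 and 2220 in Top2β-null MEF cells, or 119% of wt (adjusted p = 2.2e-04, edgeR), and 12.1% of its exon length is shared with Vps51 on the same strand. Dhcr7, the reductase that makes cholesterol in the final step of its route, had 2504 and 2616 in wt and 2621 and 2734 in Top2β-null MEF cells (log2 fold change 0.065, SE 0.0428, adjusted p = 0.201). Dhcr7 did not pass the test here, although it did with scaling to the library total (log2 fold change 0.13, adjusted p = 0.0118, edgeR).

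The fatty acid branch rose in 8 of its 9 genes and fell in 1, with log2 fold changes from -1.04 to 1.10 and a median of 0.40, against 38.1% and 42.7% of features of at least the abundance of Acss2. By the cut-offs of the study 1 gene was called higher, Fads1, and 1 lower, Acss2, against 5.44% and 6.02% of those features. The branch summed to 268841 and 273831 normalized counts in wt and to 398036 and 400177 in Top2β-null MEF cells, or 147% of wt. Fasn and Scd2 made up between 60.6% and 63.9% of this sum in the 4 libraries.

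The enzymes that supply cytosolic acetyl-CoA to both branches moved apart. Acly, ATP citrate lyase, which cleaves citrate exported from mitochondria, had 28584 and 28887 normalized counts in wt and 33370 and 33338 in Top2β-null MEF cells, or 116% of wt (adjusted p = 1.1e-06, edgeR). Acss2, acetyl-CoA synthetase, which activates free acetate, lies on chr2:155517948-155585724 on the forward strand and had 938 and 909 in wt and 458 and 442 in Top2β-null MEF cells (log2 fold change -1.04, SE 0.0656, adjusted p = 7.0e-10). Acss2 was at 48.7% of wt, the largest fall among the 33 genes, and its call by the cut-offs ended with scaling to the library total, where its log2 fold change was -0.97. Of its exon length, 3.89% lies opposite exons of Gss (raw counts 2105 and 2171 in wt against 1267 and 1362), 1.94% opposite Ggt7 (81 and 107 in wt against 725 and 719) and 3.3% opposite Acss2os (35 and 37 in wt against 14 and 11). The part of their reads in the value of Acss2 was not tested.

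The chain-building enzymes rose moderately. Fasn, fatty acid synthase, had 90691 and 93918 normalized counts in wt and 127921 and 128304 in Top2β-null MEF cells (log2 fold change 0.47, SE 0.0286, adjusted p = 3.9e-10). Acaca, the acetyl-CoA carboxylase that makes malonyl-CoA, had 29191 and 29562 in wt and 38614 and 38799 in Top2β-null MEF cells, or 132% of wt (adjusted p = 5.9e-10, edgeR). Elovl6, which lengthens palmitate to stearate, had 8661 and 8853 in wt and 10897 and 10751 in Top2β-null MEF cells, or 124% of wt (adjusted p = 2.5e-08, edgeR). Each of the 3 had both Top2β-null libraries above both wt libraries.

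The larger rises of this branch were those of Fads1, Scd2 and Fads2, which encode desaturases, and the smallest that of Scd1. Fads1, a front-end desaturase of polyunsaturated fatty acid synthesis, lies on chr19:10182888-10196877 on the forward strand and had 12469 and 12283 normalized counts in wt and 26531 and 26496 in Top2β-null MEF cells (log2 fold change 1.10, SE 0.0245, adjusted p = 1.2e-15). Its neighbour Fads2, which acts before it in the same route, lies on chr19:10062765-10101746 on the reverse strand and had 8875 and 9249 in wt and 15167 and 15561 in Top2β-null MEF cells (log2 fold change 0.76, SE 0.0276, adjusted p = 5.4e-13). Fads1 reached 214% and Fads2 170% of wt.

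Scd1 and Scd2 are stearoyl-CoA desaturases, which place the double bond of oleate and palmitoleate, and lie near each other on chromosome 19 (Scd2 at chr19:44293674-44306864 on the forward strand, Scd1 at chr19:44394455-44407879 on the reverse strand). Scd2 had 72113 and 72858 normalized counts in wt and 126485 and 127498 in Top2β-null MEF cells (log2 fold change 0.81, SE 0.0271, adjusted p = 2.0e-13). Scd1 had 17320 and 17311 in wt and 18592 and 18989 in Top2β-null MEF cells (log2 fold change 0.12, SE 0.0245, adjusted p = 5.1e-04). The paralogues thus rose to 175% and 109% of wt. As their sequences are related, reads that align to both could be split between them.

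The branches were set against each other within each library, which needs no scaling between libraries. The mean log2 normalized count over the sterol branch minus that over the fatty acid branch was -1.69 and -1.70 in wt and -1.69 and -1.67 in Top2β-null MEF cells. The difference between the lines, 0.012, was about the size of the replicate SD of 0.0113. This mean weights Acss2 like every other gene, and without Acss2, an alternative chosen after seeing the data, the values were -2.21 and -2.22 in wt and -2.38 and -2.37 in the Top2β-null line, a shift of -0.16 (replicate SD 0.00962). As medians, the branches had log2 fold changes of 0.42 (sterol) and 0.40 (fatty acid). Their summed normalized counts, in which abundant genes weigh more, differed further, at 122% of wt for the sterol and 147% for the fatty acid branch.

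The division within the sterol branch was wider. The mevalonate arm minus the squalene to cholesterol arm was -0.71 and -0.67 in wt and -0.12 and -0.12 in the Top2β-null line, a shift of 0.58 against a replicate SD of 0.0206. Against the fatty acid branch, the mevalonate arm moved up by 0.37 (replicate SD 0.0149), from -2.13 and -2.11 to -1.76 and -1.74. The squalene to cholesterol arm fell by 0.21 against that branch (replicate SD 0.0153), from -1.41 and -1.43 to -1.65 and -1.63. Both shifts depended on Acss2, and without it, an alternative chosen after seeing the data, they were 0.19 (replicate SD 0.00993) for the mevalonate arm and -0.39 (replicate SD 0.0159) for the squalene to cholesterol arm. These are descriptions of the 4 libraries with no test.

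**Figure D2:**
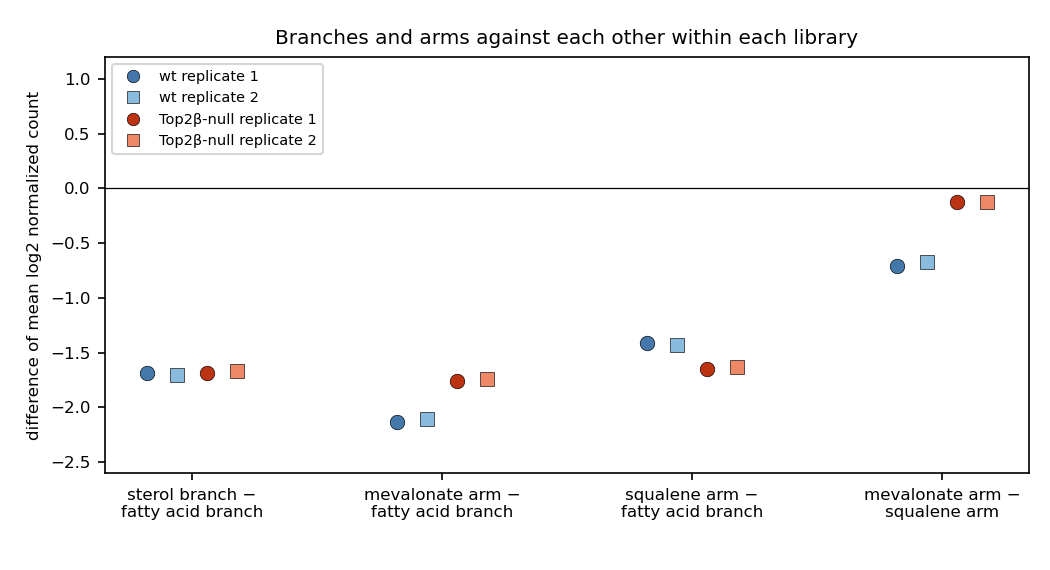
Each point is a library, and the vertical axis is the difference between the mean log2 normalized counts of 2 sets of genes within it (circles are replicate 1, squares replicate 2, blue wt, red Top2β-null). The sterol and fatty acid branches stayed between -1.70 and -1.67 apart, while the mevalonate arm rose from -0.71 and -0.67 to -0.12 in both Top2β-null libraries relative to the squalene to cholesterol arm.

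Ratios of neighbouring enzymes are given as descriptions within a library. The pairs were chosen after their values were seen, with the gene that rose, or rose more, on top, so that their direction was fixed by the choice. The log2 ratio of Fdps to Fdft1, the enzymes that make and use farnesyl diphosphate, was -1.40 and -1.29 in wt and -0.22 and -0.20 in the Top2β-null line, a shift of 1.14 (replicate SD 0.0589). The ratio of Cyp51 to Msmo1 changed sign, from -0.95 and -1.02 to 0.19 and 0.21. The ratio of Scd2 to Scd1 went from 2.06 and 2.07 to 2.77 and 2.75, and that of Acly to Acss2 from 4.93 and 4.99 to 6.19 and 6.24.

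Levels of different genes were compared per kilobase of exon length, from the annotated exons of each gene. Scd2 was the most abundant of the 33 in both lines, at 13266 normalized counts per kb in wt and 23242 in the Top2β-null line, followed by Fasn at 8432 and 11703. Srebf2 ranked 3 in wt (5525 per kb) and 6 in Top2β-null MEF cells (5033 per kb). Fads1 moved from rank 12 (2572 per kb) to rank 4 (5510 per kb) and Msmo1 from rank 5 (4658 per kb) to rank 14 (3331 per kb). Acss2 was the least abundant in both, at 90.8 per kb in wt and 44.3 in the Top2β-null line, below Tm7sf2 (412 and 490 per kb) and Dhcr7 (440 and 460 per kb). Dhcr7 and Tm7sf2 changed places between the lines.

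**Figure D3:**
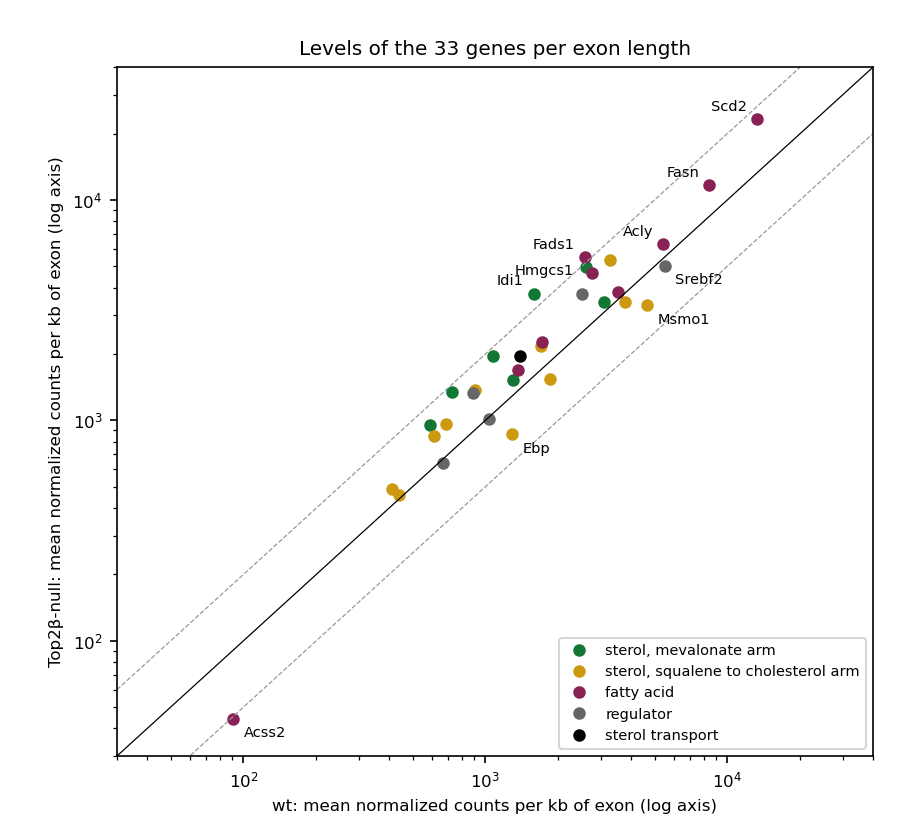
Each point is a gene, with its mean level in wt on the horizontal and in Top2β-null MEF cells on the vertical axis, both in normalized counts per kb of exon on log axes (n = 2 libraries each, colour gives branch or arm, solid line equal levels, dashed lines a fold of 2 either way). Idi1, Fads1 and Acss2 lie on or past the dashed lines, and Scd2 and Fasn are the most abundant in both lines.

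Of the 5 regulators, 2 rose, 1 fell and 2 did neither, with a median log2 fold change of -0.037. Among features of at least the abundance of Acss2, 38.1% rose and 42.7% fell, and 5 genes are too few to compare with these shares. Srebf2 had 39151 and 40233 normalized counts in wt and 35733 and 36574 in Top2β-null MEF cells, a fall to 91.1% of wt (log2 fold change -0.13, SE 0.0265, adjusted p = 3.1e-04), or -0.065 with scaling to the library total (adjusted p = 0.0491, edgeR). Srebf1 had 5910 and 5766 in wt and 5691 and 5687 in Top2β-null MEF cells (log2 fold change -0.037, SE 0.0285, adjusted p = 0.27), and with scaling to the library total its sign turned (0.033). Counts per gene do not separate the Srebf1 isoforms, and the cleaved nuclear proteins were not measured.

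Scap, the escort of both SREBP proteins, had 6490 and 6782 normalized counts in wt and 9863 and 9890 in Top2β-null MEF cells (log2 fold change 0.57, SE 0.0277, adjusted p = 2.2e-11), with 13.2% of its exon length shared with 5830462I19Rik on the opposite strand. Insig1, a retention factor that is itself a target of SREBP, had 7872 and 7659 in wt and 11392 and 11869 in Top2β-null MEF cells (log2 fold change 0.58, SE 0.0281, adjusted p = 2.1e-11). The other retention factor, Insig2, had 2407 and 2240 in wt and 2261 and 2204 in Top2β-null MEF cells (log2 fold change -0.058, SE 0.0466, adjusted p = 0.297), which overlap, and its sign turned with scaling to the library total (0.012). The log2 ratio of Insig1 to Insig2 rose from 1.71 and 1.77 to 2.33 and 2.43. Scap and Insig1, which act against each other on SREBP export, thus rose by like amounts (149% and 150% of wt).

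Stard4, which carries cholesterol between membranes and is itself a target of SREBP-2, had 7822 and 7747 normalized counts in wt and 10768 and 11006 in Top2β-null MEF cells, or 140% of wt (log2 fold change 0.48, SE 0.0257, adjusted p = 7.3e-11). Both Top2β-null libraries lay above both wt libraries.

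Other genes of the same pathways were taken from 4 lists, 50 genes in all, of which 48 were tested, 24 rose and 17 fell (background 32.5% each way), or 30 and 16 with scaling to the library total. Their median log2 fold change was 0.13, against 0.40 for the 33 genes and 0.0027 for all features. By the cut-offs, 4 were called higher, among them Abca1, Elovl7 and Acsl3, and 1 lower (Lipa), against the 5.27% and 4.97% of all features given above.

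Among the other genes of sterol and isoprenoid synthesis, 2 of 5 rose and 2 fell, near the 32.5% of all features each way, with a median log2 fold change of 0.059.

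Of 10 genes that process SREBP or turn over its partners, 4 were higher and 4 lower, close to the share of all features (32.5% each way), and 0 passed the cut-offs. Mbtps1, the protease that makes the first cut in SREBP, had 17661 and 17668 normalized counts in wt and 18985 and 19503 in Top2β-null MEF cells (log2 fold change 0.12, adjusted p = 3.9e-04, edgeR). Mbtps2, which makes the next cut, had a log2 fold change of 0.019 (adjusted p = 0.581, edgeR). For Mbtps2 this depended on the setting, with 0.089 under scaling to the library total (adjusted p = 0.016, edgeR), 0.076 without Top2β-null replicate 1 and -0.015 without Top2β-null replicate 2. Rnf139, a ubiquitin ligase of the endoplasmic reticulum, fell from 5801 and 5795 to 3163 and 3209 normalized counts.

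Among genes of sterol uptake, storage and efflux, 7 of 13 tested rose and 4 fell, against 32.5% of all features each way, and 1 was called higher and 1 lower, against 5.27% and 4.97%. Abca1, the pump that exports cholesterol to apolipoproteins, had 103 and 78.2 normalized counts in wt and 991 and 1032 in Top2β-null MEF cells, an 11.2-fold difference (log2 fold change 3.48, SE 0.101, adjusted p = 3.1e-14). Lipa, the lysosomal lipase that frees cholesterol from its esters, had 5417 and 5273 in wt and 2593 and 2630 in Top2β-null MEF cells (log2 fold change -1.03, SE 0.0346, adjusted p = 2.0e-13), and its call by the cut-offs ended with scaling to the library total (-0.96). The change in Abca1 was larger than that of any of the 33 synthesis genes.

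Among other genes of fatty acid synthesis and activation, 11 of 20 tested rose and 7 fell, against 32.5% of all features each way. Elovl7, an elongase of long chains, had 104 and 108 normalized counts in wt and 552 and 515 in Top2β-null MEF cells (log2 fold change 2.33, SE 0.105, adjusted p = 9.4e-12). Acsl3, which activates fatty acids with coenzyme A, had 3279 and 3212 in wt and 6589 and 6785 in Top2β-null MEF cells (log2 fold change 1.04, SE 0.0315, adjusted p = 5.2e-14). Tecr, the reductase of the elongation cycle, moved the other way, from 23768 and 24721 to 11821 and 12574 (log2 fold change -0.99, SE 0.0309, adjusted p = 7.9e-14).

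**Figure D4:**
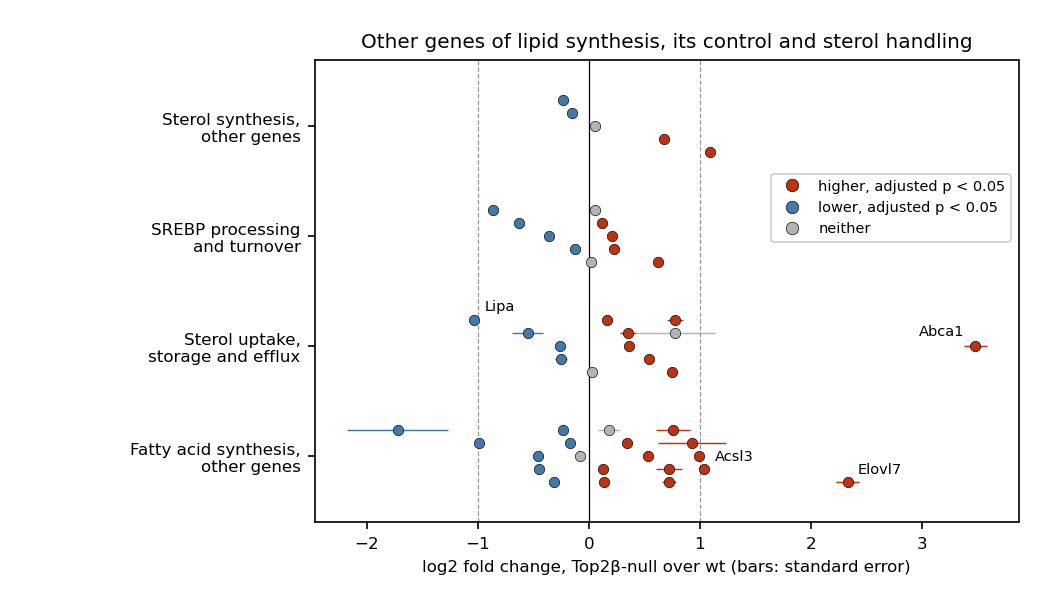
Each point is 1 of the 48 tested genes outside the 33, by list, placed by its log2 fold change of Top2β-null over wt with its standard error (red higher and blue lower at an adjusted p below 0.05, grey neither, dashed lines a log2 fold change of 1 either way). Abca1, Elovl7, Acsl3 and Lipa, which passed the cut-offs, are named, and Abca1 lies farthest right at 3.48.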

How the data were processed

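Counts came as deposited by the authors. Per the methods, 150 bp read pairs were trimmed (Trim Galore!) and aligned to mm10 by STAR with multiple alignments retained, and TEtranscripts counted them using Gencode M9 genes and a repeat annotation. The table holds whole-number counts, not normalized, of 54842 genes plus 1562 repeat families, and 54409 gene identifiers were matched to GENCODE M21 (GRCm38), the source of symbols, positions and exon lengths. Whether counting used strand, or shared reads with many alignments, is not given in the sources used here.

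The filter retained features reaching 10 counts in 2 or more libraries (25085 genes, 1481 repeat families), fitted in R 4.3.3 with edgeR 4.0.16 (TMM over genes and repeats, quasi-likelihood test, genotype as the only term). The SE is the absolute log2 fold change over the square root of F. The members and lists were chosen with earlier results of these data known. All 33 members, Top2b and listed pathway genes past the cut-offs are named, except items not reported here. Mbtps1, Mbtps2, Rnf139 and Tecr fall outside this rule and were chosen after their values were seen. Alternatives were DESeq2 1.42.0, other scalings, other filters, a replicate block and leaving out each library. Replicate libraries were not copies of each other (chi-square per degree of freedom 3.65 between wt libraries, 5.07 between Top2β-null libraries), so all 4 were kept. The test was checked on simulated data.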

Additional observations from a re-analysis of the deposited data

How the results depend on the processing

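Of 198 values of the 33 genes under alternatives with all libraries kept, 194 kept their direction and side of the adjusted p threshold, as did all 132 with a library left out, where the lone library of its line is assumed to vary like the other line. The other 4 came with scaling to library totals, which raises log2 fold changes by a median of 0.07 by construction. There Srebf1 turned to 0.033 and Insig2 to 0.012, Sqle (-0.056) no longer passed and Dhcr7 (0.13) did. No member and none of the other pathway genes was then called lower (0 each, with Acss2 at -0.97 and Lipa at -0.96), and 25 members rose and 5 fell, against 24 and 6 in every other setting. The median of the sterol branch was 0.44 when genes alone set the TMM factors, 0.49 for library totals and 0.43 without a filter. For the fatty acid branch, DESeq2 gave 0.41, genes alone 0.42, library totals 0.47 and no filter 0.41. For the regulators, genes alone gave -0.018, library totals 0.033 and no filter -0.02. Leaving out each library gave 0.40 to 0.45, 0.39 to 0.42 and -0.055 to -0.0051 for these medians, and 0.00098 to 0.023 for the difference between branches, which was -0.16 without Acss2. It gave 1 to 2 other pathway genes called lower, with 2 without wt replicate 1 (Tecr at -1.02) and without Top2β-null replicate 2 (Tecr at -1.03, and Mbtps2 reversed at -0.015, against 0.076 without Top2β-null replicate 1), and the cause was not tested. With the replicate number as a block, 24 members rose and 6 fell, 2 were called higher and 1 lower, and no call changed. Same-numbered libraries had a correlation of deviations of 0.0195 over 17953 features, so nothing shows that the numbers pair the libraries.

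Depth did not limit these genes, of which the least abundant, Acss2, had 442 to 938 normalized counts. The limits are 2 libraries a line, lines not stated to share a source, related genes and overlapping exons. Exon bases are shared with another gene by 12 members, 5 of them over at least 10% of their length. Further limits are RNA levels without protein or lipid measurements, and promoter entries for 26 members.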

Other observations

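Other genes of the lists, named after their values were seen, moved beside the called ones. Acsl4, a synthetase that favours polyunsaturated fatty acids, had 8341 and 8183 normalized counts in wt and 16240 and 16534 in Top2β-null MEF cells (log2 fold change 0.99, edgeR), just under the cut-off passed by Acsl3, and 1.06 with scaling to the library total. The low-abundance paralogues Scd3 (166 and 175 against 289 and 271) and Scd4 (146 and 110 against 234 and 199) were higher in Top2β-null MEF cells like Scd2, with log2 fold changes of 0.72 and 0.76, and their reads may include reads from Scd1 and Scd2. Npc2, which hands cholesterol out of the lysosome, and Soat1, which esterifies it, had log2 fold changes of 0.75 and 0.54, while Lipa, which acts before them, had -1.03. Sec24d, a coat protein of vesicles leaving the endoplasmic reticulum, had -0.63.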
